A study of Mus musculus with 11 samples.

Results

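Neurotrophins are secreted proteins that keep neurons alive and shape their connections, and the 7 genes described here are the neurotrophins Bdnf and Ntf3, the related factor Gdnf, and the receptors Ngfr, Ntrk2, Ntrk3 and Gfra1. They were chosen by name from the 32285 genes of the count matrices, and each name matched 1 gene. The libraries were single-cell RNA libraries of the right brain, 1 per mouse, and each value is a count of unique molecular identifiers (UMIs), which mark single captured RNA molecules.

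The sham + WT group (3 mice, replicates 1, 2 and 3) and the MCAO/R + WT group (2 mice, replicates 1 and 2) were male C57BL/6 mice of 8 to 10 weeks. The sham + Lrg1-/- group (3 mice, replicates 1, 2 and 5) and the MCAO/R + Lrg1-/- group (3 mice, replicates 1, 2 and 5) lacked Lrg1, a secreted glycoprotein, in the whole body, were bred in another colony with 4 generations of backcrossing to C57BL/6N, and were 3 months old. Genotype, colony and age therefore cannot be told apart in these mice. The cell types recovered differed between the genotypes as well, with values given below. MCAO/R is occlusion of the middle cerebral artery for 1 h followed by reperfusion, a model of ischemic stroke, and the sham groups had surgery without the occlusion. The study's text names different reperfusion times in different places, and which of them applies to the sequenced mice is not clear. The brains were dissociated with enzymes at 37 °C and passed through a strainer, so that every level below is that of cells which survived this step.

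BDNF binds the receptor kinase TrkB, which Ntrk2 encodes, and NT-3, the product of Ntf3, binds mainly TrkC, which Ntrk3 encodes. GDNF belongs to another family, binds the membrane-anchored coreceptor GFRα1 (Gfra1) and signals through the kinase Ret. The product of Ngfr, p75NTR, binds all neurotrophins with lower affinity and has a higher affinity for their uncleaved forms. Astrocytes mainly make a truncated TrkB without the kinase domain, and counts per gene, as used here, do not separate it from the full-length form.

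On GRCm38 with the GENCODE M21 annotation, Bdnf lies at chr2:109674700-109727007 on the plus strand, Ntf3 at chr6:126101412-126166910 on the minus strand and Gdnf at chr15:7810846-7837575 on the plus strand. The receptor genes are Ntrk2 at chr13:58806569-59133970 on the plus strand, Ntrk3 at chr7:78175959-78738012, Gfra1 at chr19:58235604-58455909 and Ngfr at chr11:95568818-95587735, all 3 on the minus strand. These are whole genes with exons and introns. The 2 start regions of Ntf3 are printed here because Ntf3 was the ligand whose level passed the test after surgery in both genotypes. Both come from RefSeq on GRCm38.p6, from 250 bases before a start to 50 after it, with capitals marking GGGCGG or its reverse complement CCGCCC, the core of GC boxes.
Ntf3 start at chr6:126166695-126166994, minus strand: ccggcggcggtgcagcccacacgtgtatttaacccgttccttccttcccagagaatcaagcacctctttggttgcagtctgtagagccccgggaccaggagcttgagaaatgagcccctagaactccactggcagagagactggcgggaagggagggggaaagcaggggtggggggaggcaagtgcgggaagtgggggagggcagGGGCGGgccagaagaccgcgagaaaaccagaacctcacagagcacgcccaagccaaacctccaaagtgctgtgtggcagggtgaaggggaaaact
Ntf3 start at chr6:126164911-126165210, minus strand: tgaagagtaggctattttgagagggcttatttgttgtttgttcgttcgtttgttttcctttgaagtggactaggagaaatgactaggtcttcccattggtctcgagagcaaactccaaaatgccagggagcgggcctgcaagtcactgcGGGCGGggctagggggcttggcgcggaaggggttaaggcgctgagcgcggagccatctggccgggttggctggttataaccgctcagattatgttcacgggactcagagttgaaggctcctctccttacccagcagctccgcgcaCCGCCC
The first region held 1 match and the second held 2, while 35.7% of 32851 promoters of the same length held at least 1 on either strand. The CArG box of serum response factor (in 1.63% of all promoters), TATAAA (13.6%) and TGACGTCA (1.79%) had no match in either region. These letters are a description, and 3′ counts do not show which start was used.

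Of 155804 barcodes, 132437 passed the limits of more than 500 genes, more than 1000 UMIs and under 25% mitochondrial UMIs, and 124486 cells remained after removal of the highest doublet scores. Of these, 87659 cells fell into 20 cell types named from marker genes. The other 36827 cells lay in clusters that missed the naming rules given below and stayed unnamed. MCAO/R + Lrg1-/- replicate 5 stood apart, with 32130 cells of which 18606 were unnamed, against 3054 to 16839 cells in the other libraries. The median depth per cell ranged from 3071.5 to 11074 UMIs and was lower in all 6 Lrg1-/- libraries, at 3071.5 to 7414.5, than in 4 of the 5 WT libraries, at 9297 to 11074; sham + WT replicate 1 lay among the Lrg1-/- libraries at 5964. The cell types recovered differed along genotype too. Red blood cells numbered 0 or 1 in each WT library and 77 to 2174 in each Lrg1-/- library. Choroid plexus epithelial cells made up 1.35% of sham + WT and 0.489% of MCAO/R + WT cells. In the sham + Lrg1-/- and MCAO/R + Lrg1-/- groups they made up 26.9% and 8.38%. The part of these differences in the contrasts between genotypes was not tested. Pairs of libraries shared at most 1.06% of the smaller library's cell barcodes. Lrg1 itself had no UMI in the endothelial cells of the 6 Lrg1-/- libraries, against per-million UMI values (CPM, relative to all UMIs of a cell type in a library) of 7.28 to 25.6 in the sham + WT libraries and 425 and 490 in the MCAO/R + WT libraries, so that the genotype labels matched the data. In the cell types named from a single marker list, all 7 markers were at least 2-fold above the other cells, apart from neurons, with 9 of 10. The other 2 types were not checked in this way. Transitional mural cells are clusters that carried pericyte and smooth muscle markers alike, and neural progenitors or young neurons carried markers of both.

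The 7 genes were captured to very different depths. Ntrk2 gave 82515 UMIs over all cells, Ntrk3 gave 13042 and Gfra1 gave 11957, while Ntf3 gave 2042, Bdnf 1629, Ngfr 460 and Gdnf 315. Between 78.0% (Ngfr) and 92.3% (Gfra1) of these UMIs lay in named cells. Levels below are CPM, with libraries of at least 20 cells of that type, and they are compared within a gene and not between genes.

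**Figure D1:**
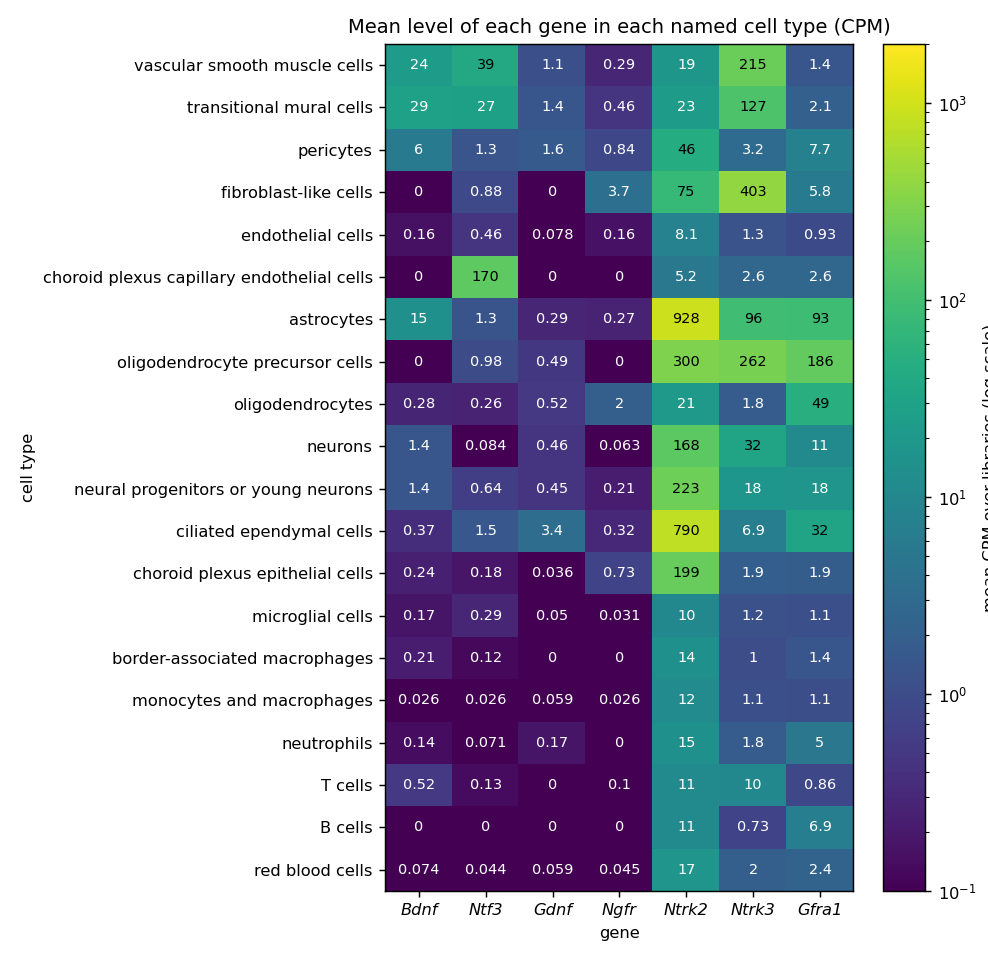
Heat map of the mean level of each gene (columns) in each of 20 cell types (rows), in CPM on a log color scale, averaged over libraries with at least 20 cells of the type. Bdnf and Ntf3 are brightest in mural cells and, for Ntf3, choroid plexus capillary endothelial cells, while Ntrk2 peaks in astrocytes at 928 and ciliated ependymal cells at 790.

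Among the named cells recovered, the levels of both neurotrophins were led by cells of the vessel wall and, for Ntf3, of choroid plexus capillaries. A cell type was called a source or receiver when its CPM was at least 2 times that of all other cells in at least 3 in 4 of its libraries, with at least 3 libraries and 10 UMIs, and 23 pairs of a gene and a cell type met this. For Bdnf these were vascular smooth muscle cells (VSMCs), which contract the vessel wall, and transitional mural cells. Bdnf reached 28.8 CPM in transitional mural cells (SD 13.7, n = 10 libraries) and 23.6 in VSMCs (SD 13.6, n = 11), and the ranges of these overlapped. Neurons were few, at 911 of the 124486 cells. The 9 libraries with at least 20 of them held 11 Bdnf UMIs in neurons, so this order says little about neurons of the intact brain. Cells with a Bdnf UMI made up 8.74% of transitional mural cells and 7.66% of VSMCs, against 0.113% of microglial cells, which served as the cell type for comparison. With each cell thinned to 1000 UMIs the shares were 1.56%, 1.99% and 0.0506%, with microglial cells lowest again. Thinning ended 6 of the 23 pairs, however, namely Bdnf in transitional mural cells, Gdnf in both of its types, Gfra1 in ciliated ependymal cells, Ngfr in oligodendrocytes and Ntrk3 in neurons. A ratio of 3 in place of 2 also ended 6, namely Gdnf in transitional mural cells, Gfra1 in ciliated ependymal cells, Ntrk3 in neurons and Ntrk2 in choroid plexus epithelial cells, neural progenitors or young neurons and oligodendrocyte precursor cells. Median depths were 7993 to 12240 UMIs in transitional mural cells, 7107.5 to 13519 in VSMCs and 2990 to 10636.5 in microglial cells.

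Astrocytes narrowly missed the rule for Bdnf, with 8 of 11 libraries, under 3 in 4, past 2 times the level of the other cells (median ratio 3.81). They met it at a ratio of 1.5, and without sham + Lrg1-/- replicate 2 or 5 or MCAO/R + Lrg1-/- replicate 5. They held 383 Bdnf UMIs, and 281 of them came from 1 mouse. MCAO/R + WT replicate 1 had 106 CPM, with a Bdnf UMI in 29.0% of its 224 astrocytes, while replicate 2 of the same group had 2.27 CPM. The sham + WT mice had 4.90, 6.55 and 5.44 CPM and the MCAO/R + Lrg1-/- mice 17.1, 11.0 and 1.34. The sham + Lrg1-/- mice had 5.72, 0 and 0 CPM, where the zeros allow up to 5.72 and 5.88 CPM (3 counts, counting error only). Over all mice the mean was 14.6 CPM (SD 30.8, n = 11), and no contrast of Bdnf in astrocytes passed the test.

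Ntf3 was highest in choroid plexus capillary endothelial cells, the leaky capillaries of the choroid plexus. The sham + WT mice had 186, 168 and 155 CPM there, with a UMI in 61.4% of the cells (SD 24.4, n = 3), and no other group had 20 such cells in a library. This level did not overlap that of VSMCs at 39.3 CPM (SD 20.4, n = 11), which in turn overlapped transitional mural cells at 27.5 CPM (SD 14.8, n = 10). The endothelial cells of other vessels had Ntf3 levels of 0.0629 to 1.16 CPM across the 11 libraries, and pericytes, the other mural cell, had 1.35 CPM (SD 1.76). Thinned to 1000 UMIs, 13.8% of choroid plexus capillary endothelial cells, 4.23% of VSMCs and 0.0475% of microglial cells kept a UMI. VSMCs held 43.1% of all Ntf3 UMIs, choroid plexus capillary endothelial cells 12.1% and transitional mural cells 12.8%.

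Gdnf was sparse. It passed the source rule in ciliated ependymal cells, which line the ventricles, with 79 UMIs and 3.44 CPM (SD 2.93, n = 11), and in transitional mural cells with 13 UMIs and 1.40 CPM (SD 1.04, n = 10). All neighbours in the order of Gdnf levels overlapped. In oligodendrocytes, the myelinating cells, Gdnf had no UMI in any of the 6 sham libraries. The MCAO/R + WT mice had 9 and 0 UMIs there (0.622 and 0 CPM) and the MCAO/R + Lrg1-/- mice 2, 24 and 17 (0.814, 3.17 and 1.06 CPM), and the zeros allow up to 0.163 to 0.2497 CPM in the sham + WT and 0.889 to 2.98 in the sham + Lrg1-/- mice (3 counts). MCAO/R + Lrg1-/- replicate 2 was the 1 mouse above all of these limits. None of the contrasts of Gdnf in oligodendrocytes passed the test, and the adjusted p of the difference between genotypes after MCAO/R was 0.0615 (edgeR, Benjamini‒Hochberg).

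Ntrk2 was highest in astrocytes and ciliated ependymal cells, and low in oligodendrocytes (20.8 CPM) and microglial cells (10.1 CPM). Astrocytes had 928 CPM (SD 363, n = 11) and ciliated ependymal cells 790 (SD 134, n = 11), with overlapping ranges. Below them and apart from them came oligodendrocyte precursor cells at 300 CPM (SD 23.5, n = 3). Only MCAO/R + WT replicate 2 and MCAO/R + Lrg1-/- replicates 2 and 5 had at least 20 such cells (36, 29 and 25). No sham mouse therefore entered any level of this type, and without any 1 of these libraries it cannot meet the receiver rule. Then came neural progenitors or young neurons at 223 (SD 54.6, n = 9). Choroid plexus epithelial cells, which make cerebrospinal fluid, had 199 (SD 35.1, n = 10) and neurons 168 (SD 31.4, n = 9). The last 3 types overlapped. Cells with an Ntrk2 UMI made up 84.0% of astrocytes, 93.2% of ciliated ependymal cells and 62.8% of neurons against 6.47% of microglial cells, and 52.6%, 47.7%, 15.8% and 1.66% after thinning. Neurons missed the receiver rule for Ntrk2, with 6 of 9 libraries, under 3 in 4, past 2 times the level of the other cells.

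Ntrk3 had its highest levels in fibroblast-like cells of the vessel wall and meninges, at 403 CPM (SD 142, n = 4 libraries). Oligodendrocyte precursor cells had 262 (SD 28.2, n = 3, all after MCAO/R) and VSMCs 215 (SD 54.8, n = 11). Transitional mural cells followed at 127 (SD 34.2, n = 10), astrocytes at 95.9 (SD 52.7, n = 11) and neurons at 32.3 (SD 11.9, n = 9), each overlapping the next. VSMCs held 37.4% of all Ntrk3 UMIs and 74.3% of them had at least 1, against 0.770% of microglial cells (15.8% and 0.115% thinned). VSMCs and transitional mural cells thus carried Ntf3 and Ntrk3, a ligand and its receptor, in the same cell types.

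Gfra1 was highest in oligodendrocyte precursor cells at 186 CPM (SD 31.8, n = 3, all after MCAO/R), apart from astrocytes at 92.6 (SD 55.5, n = 11). Astrocytes overlapped oligodendrocytes at 49.4 (SD 19.1, n = 11) and these in turn ciliated ependymal cells at 31.9 (SD 15.8, n = 11). Oligodendrocytes held 48.0% of its UMIs. Ret, the kinase partner of GFRα1, was instead highest in endothelial cells at 8.73 CPM (SD 3.73, n = 11) and T cells at 4.51 (SD 4.07, n = 10), and none of the 4 receiver types of Gfra1 was among the 3 types highest in Ret. Ncam1, an adhesion molecule that can serve GFRα1 as a partner without Ret, had 939 CPM in oligodendrocyte precursor cells (SD 179, n = 3). Ngfr passed the rule in oligodendrocytes alone among the 20 types, with 211 UMIs and 2.04 CPM (SD 1.25, n = 11), 1.92% of cells with a UMI (0.214% thinned) against 0.0238% of microglial cells. Fibroblast-like cells had a higher mean, 3.72 CPM (SD 2.69, n = 4), on 5 UMIs.

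Over the 20 cell types, genes among the 3 whose mean log2(CPM + 1) was most like that of each member were, by Pearson correlation, Dmp1 (0.95), Myh11 (0.94) and Htr1b (0.94) for Bdnf, where Myh11 is smooth muscle myosin and one of the markers that named the VSMCs. For Ntf3 they were Gm10648 (0.89), 1110018N20Rik (0.88) and Endou (0.88), and for Gdnf Syt5 (0.94), Tspyl5 (0.92) and Kcnmb1 (0.90). For the receptors they were Cacna2d2 (0.95), Clip4 (0.93) and Nkain4 (0.93) for Ntrk2, Flrt1 (0.84), Kcnt1 (0.83) and Adra1a (0.81) for Ntrk3, Adgrb2 (0.97) and Galnt16 (0.95) for Gfra1 and Efemp1 (0.86), Ptgds (0.86) and Serpind1 (0.85) for Ngfr. The points are cell types of the same 11 libraries, so these values are a description.

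The groups were compared on UMIs summed per mouse and cell type with the quasi-likelihood test of edgeR. All groups entered the fit of a cell type, with Benjamini‒Hochberg adjustment across the genes kept in it. A pair of gene and cell type counted as called where the adjusted p was under 0.05 and the natural log of the fold change was beyond 0.25 in either direction. A contrast was tested in a cell type only with at least 2 libraries in each group it used. With the filter on low counts, this left 38 pairs of a member and a cell type in each contrast but 2. Those were the contrast between the sham groups with 37 and the interaction of genotype and surgery with 32. Ngfr was tested in 1 type, Gdnf in 2, Bdnf and Ntf3 in 4, Gfra1 in 5 to 7, Ntrk3 in 7 to 9 and Ntrk2 in 9 to 12. Since the sums count RNA in a fixed total, a log2 fold change is relative to the other RNA of that cell type.

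In WT mice, the comparison of MCAO/R with sham asks what the occlusion did. It called 6 of 38 pairs, 2 higher and 4 lower, while 10.7% of all pairs of a gene and a cell type tested were called, 5.39% higher and 5.31% lower. Within VSMCs 12.2% of all genes tested were called and within pericytes 4.24%. Ntf3 and Ntrk2 fell in VSMCs, Ntrk2 fell in pericytes, Gfra1 fell in oligodendrocytes, and Ntrk2 and Ntrk3 rose in oligodendrocytes. The median log2 fold change of the 38 pairs was −0.17, beside 0.01 over all genes tested.

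Ntf3 in VSMCs was 52.5, 70.0 and 67.3 CPM in the sham + WT mice and 19.3 and 45.2 in the MCAO/R + WT mice. Both mice with MCAO/R lay below the 3 sham mice, with a change of −0.95 ± 0.25 (log2 ± SE; edgeR, adjusted p = 0.0199). Without MCAO/R + WT replicate 1, the lower mouse, the adjusted p was 0.31, with the remaining mouse assumed to vary like the others, and it was 0.071 without sham + WT replicate 2 or sham + WT replicate 3. The change ranged from −1.70 to −0.46 when 1 library was left out.

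In Lrg1-/- mice, the same comparison called 5 of 38 pairs, all lower, beside 11.1% of all pairs tested, 5.91% higher and 5.22% lower. Of all genes tested, 12.8% were called in VSMCs, 8.3% in transitional mural cells, 5.67% in ciliated ependymal cells and 22.8% in endothelial cells. Ntf3 in VSMCs was 42.5, 44.6 and 44.0 CPM in the sham + Lrg1-/- mice and 20.6, 11.0 and 14.7 in the MCAO/R + Lrg1-/- mice. The groups did not overlap, with a change of −1.67 ± 0.28 (log2 ± SE; edgeR, adjusted p = 0.00088). It stayed past the threshold when any 1 library was left out, with a highest adjusted p of 0.017, and was lost when cells were thinned to 1000 UMIs (0.062).

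The share of VSMCs with an Ntf3 UMI followed the levels, at 47.8% ± 11.0 for sham + WT (SD, n = 3), 24.6% ± 14.1 for MCAO/R + WT (n = 2), 34.7% ± 3.61 for sham + Lrg1-/- (n = 3) and 13.7% ± 6.92 for MCAO/R + Lrg1-/- mice (n = 3). Smooth muscle markers in these cells had a summed level of 36682 to 40000 CPM, 33274 to 34263, 31603 to 42819 and 25454 to 35377 in the same order of groups, with all 7 markers present in every library. The lowest of these sums came from MCAO/R + Lrg1-/- mice, where Ntf3 was lowest too. Pericyte markers in the VSMCs rose from 644 to 742 up to 915 to 922 CPM with surgery in WT mice. In Lrg1-/- mice they overlapped (1158 to 1795 and 858 to 1683). Ciliated ependymal markers rose from 183 to 187 up to 250 to 258 CPM in WT and from 198 to 249 up to 286 to 433 in Lrg1-/- mice. The part of these lists in the result was not tested. In transitional mural cells Ntf3 was 40.3, 28.8 and 58.5 CPM in sham + WT mice, 20.3 and 34.4 in MCAO/R + WT mice, 25.3, 24.5 and 25.6 in sham + Lrg1-/- mice and 7.59 and 9.32 in the MCAO/R + Lrg1-/- mice with enough cells. The 2 last values were the lowest of all 10. The fall with surgery was −0.65 ± 0.30 in WT mice (adjusted p = 0.22) and −1.58 ± 0.49 in Lrg1-/- mice (adjusted p = 0.056), neither past the threshold with edgeR.

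**Figure D2:**
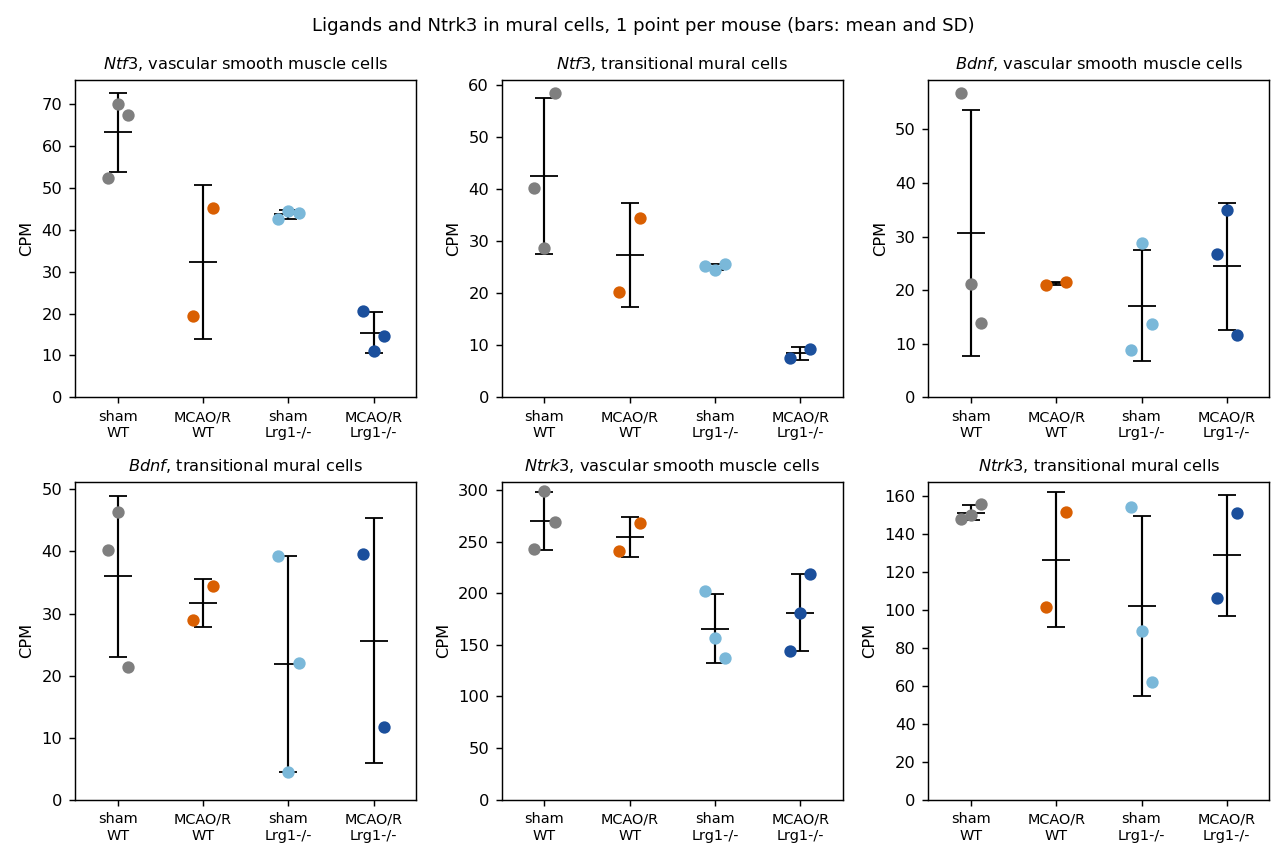
Levels of Ntf3, Bdnf and Ntrk3 (CPM, linear axes from 0) in vascular smooth muscle cells and transitional mural cells, with 1 point per mouse and bars for the group mean and SD. Ntf3 in vascular smooth muscle cells falls from 42.5 to 70.0 in the 6 sham mice to 11.0 to 45.2 in the 5 mice with MCAO/R, while Bdnf ranges overlap between all groups.

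No contrast of Bdnf was called in the mural cells. In VSMCs it was 56.8, 21.1 and 13.9 CPM in sham + WT mice, 21.0 and 21.5 in MCAO/R + WT mice, 8.86, 28.8 and 13.7 in sham + Lrg1-/- mice and 26.8, 35.0 and 11.6 in MCAO/R + Lrg1-/- mice, with overlap between every pair of groups. Its log2 fold change with surgery was −0.42 ± 0.53 in WT mice (edgeR, adjusted p = 0.69) and 0.61 ± 0.54 in Lrg1-/- mice (0.51). With standard errors of this size a 2-fold change could not be told from none. Bdnf in microglial cells was not called in any contrast either. The difference between the changes of Bdnf and Ntf3 was not tested.

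Ntrk2 in VSMCs was 18.2, 32.6 and 22.4 CPM in sham + WT mice and 2.21 and 7.72 in MCAO/R + WT mice. The groups were apart, and the change of −2.27 ± 0.39 (log2 ± SE; edgeR, adjusted p = 0.0011) passed under all 21 alternatives in which it could be fitted. It ranged from −3.42 without MCAO/R + WT replicate 2 to −1.64 without MCAO/R + WT replicate 1. In Lrg1-/- mice the values were 27.6, 21.6 and 28.8 CPM after sham and 14.4, 17.8 and 12.6 after MCAO/R, with no overlap and a log2 fold change of −0.74 ± 0.29 that did not pass (adjusted p = 0.11). These levels rest on 4 to 82 UMIs per library. Markers of choroid plexus epithelial cells, a receiver type of Ntrk2, in these VSMCs summed to 312 to 508 CPM in sham + WT and 92.7 to 214 in MCAO/R + WT mice, and to 11751 to 16937 and 3205 to 8850 in the Lrg1-/- mice, with 4 to 7 of 7 markers present. They were lower after MCAO/R as Ntrk2 was. Markers of ciliated ependymal cells, another receiver type of Ntrk2, went the other way in these VSMCs, without overlap. In WT mice they rose from 183 to 187 up to 250 to 258 CPM. In Lrg1-/- mice they rose from 198 to 249 up to 286 to 433 CPM. Astrocyte markers overlapped between sham and MCAO/R in both genotypes. The part of these lists in the result was not tested.

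In pericytes, which wrap capillaries, Ntrk2 was 22.4, 36.8 and 41.4 CPM in sham + WT mice and 10.7 and 18.5 in MCAO/R + WT mice, with a log2 fold change of −1.16 ± 0.30 (edgeR, adjusted p = 0.025) that was lost without MCAO/R + WT replicate 1 (0.17), sham + WT replicate 2 (0.12) or sham + WT replicate 3 (0.16), and with DESeq2 (0.057). Choroid plexus epithelial markers in these pericytes went from 404 to 1992 CPM down to 111 to 278. The cells' own pericyte markers fell too, from 23680 to 24499 down to 15085 to 19720 CPM. Markers of astrocytes (90.5 to 120 and 114 to 174 CPM) and ciliated ependymal cells (444 to 461.1 and 460.6 to 488) were higher after MCAO/R, with overlap. The part of these lists in the result was not tested. In transitional mural cells Ntrk2 fell in the Lrg1-/- mice, from 37.9, 71.3 and 25.6 CPM after sham to 12.6 and 14.0 after MCAO/R (log2 fold change −1.77 ± 0.47, edgeR adjusted p = 0.025). That fall was lost without MCAO/R + Lrg1-/- replicate 2 (0.25), which held 121 of the cells, MCAO/R + Lrg1-/- replicate 5 (0.062) or sham + Lrg1-/- replicate 2 (0.16). Astrocyte markers in transitional mural cells summed to 28.6 to 167 CPM in sham + WT, 32.8 and 114 in MCAO/R + WT, 60.4 to 73.2 in sham + Lrg1-/- and 34.9 and 43.8 CPM in MCAO/R + Lrg1-/- mice, with 5 to 7 of 7 markers present. They were lower after MCAO/R in the Lrg1-/- mice as Ntrk2 was. The cells' own pericyte markers were lower too, at 4075 to 4282 against 7663 to 11780.3 CPM, while ciliated ependymal markers were higher, at 401 to 501 against 225 to 275. The part of these lists in the result was not tested.

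**Figure D3:**
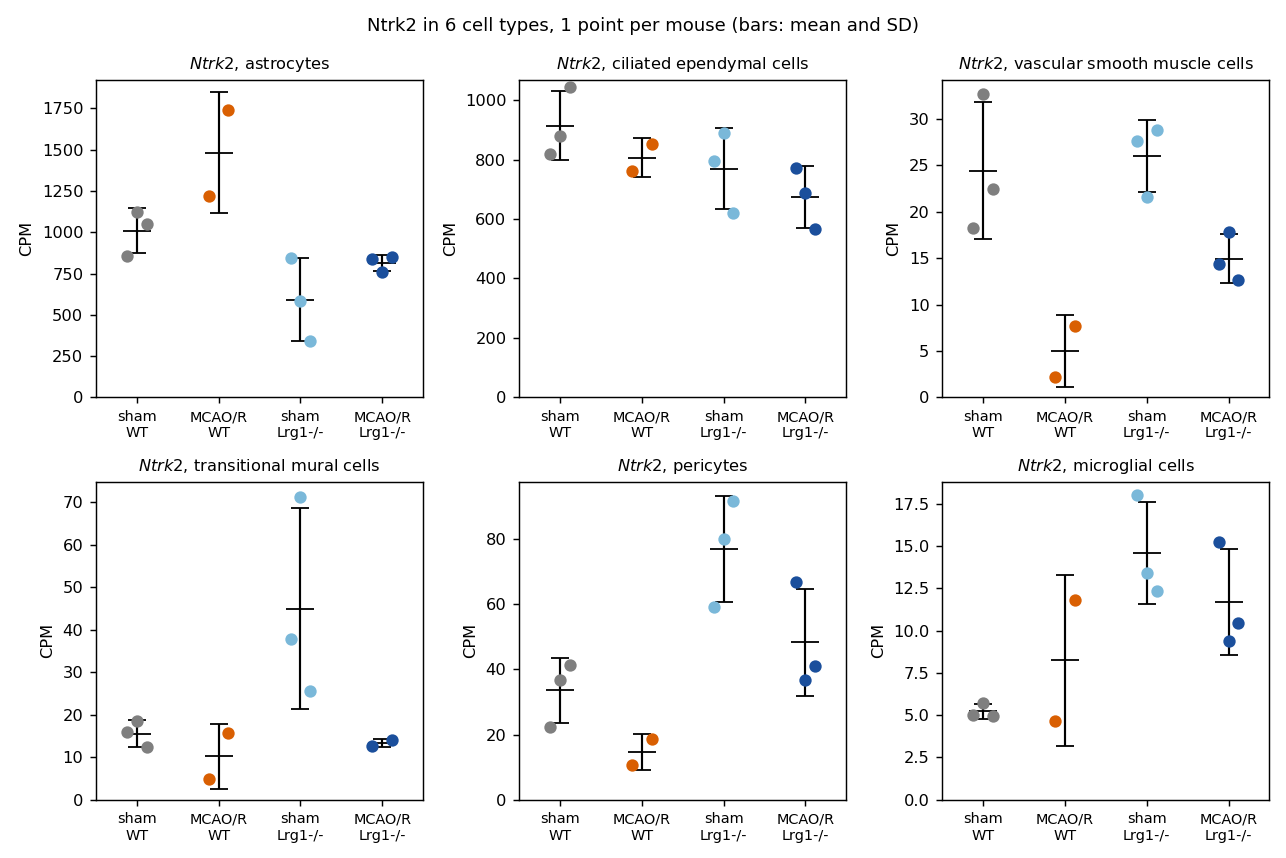
Ntrk2 (CPM, linear axes from 0) in 6 cell types, with 1 point per mouse and bars for the group mean and SD. In astrocytes the MCAO/R + WT mice lie highest at 1221.6 and 1740.4 and the Lrg1-/- mice between 341 and 847, and in vascular smooth muscle cells the MCAO/R + WT mice lie lowest at 2.21 and 7.72.

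In oligodendrocytes, 3 receptors were called with surgery in WT mice, beside 25.3% of all genes tested in that cell type called. Gfra1 was 75.4, 62.0 and 75.3 CPM in sham + WT mice and 38.9 and 23.5 in MCAO/R + WT mice, without overlap, and fell by 1.29 ± 0.29 on the log2 scale (SE; edgeR, adjusted p = 0.0046). In the Lrg1-/- mice it was 27.9, 46.8 and 67.6 CPM after sham and 55.3, 43.4 and 27.2 after MCAO/R, overlapping fully, with a log2 fold change of −0.15 ± 0.31 (adjusted p = 0.81). The difference between these effects, the interaction of genotype and surgery, was 1.14 ± 0.42 and did not pass (adjusted p = 0.17). The fall in WT mice missed the threshold by a little without MCAO/R + WT replicate 2 (0.057).

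Ntrk2 in oligodendrocytes rose from 17.2, 18.1 and 14.2 CPM to 37.2 and 25.1 in WT mice (log2 fold change 0.81 ± 0.19, edgeR adjusted p = 0.0063), and Ntrk3 rose from 0.904, 0.598 and 0.749 CPM to 6.36 and 1.14 (2.16 ± 0.63, 0.021). Both rises rested on MCAO/R + WT replicate 1, which held 92 of the Ntrk3 UMIs, and without it the adjusted p was 0.12 for Ntrk2 and 0.64 for Ntrk3. Leaving out any single sham + WT mouse also ended the call of Ntrk3, at 0.051 to 0.078. Oligodendrocyte markers in these cells summed to 45269 to 46469 CPM in sham + WT, 28049 to 29340.4 in MCAO/R + WT, 28763 to 35159 in sham + Lrg1-/- and 15838.5 to 22665 in MCAO/R + Lrg1-/- mice, with all 7 present. They were lower after MCAO/R in both genotypes, as Gfra1 was in WT mice. Markers of VSMCs, a receiver type of Ntrk3, went from 82.7 to 89.9 down to 63.3 to 64.8 CPM in the oligodendrocytes of WT mice. Those of ciliated ependymal cells, a receiver type of Ntrk2, went from 31.1 to 34.7 down to 26.0 to 27.5. Markers of astrocytes, receivers of both, overlapped (134 to 160 and 80.4 to 162). Markers of oligodendrocyte precursor cells, the type highest in Gfra1, summed to 839 to 949.8 CPM in the oligodendrocytes of sham + WT and 513 to 581 in those of MCAO/R + WT mice, against 524 to 584 and 371 to 432 in the Lrg1-/- mice, with 5 to 7 of 7 present. The precursor list includes Olig1, Olig2 and Cspg5, and its sum does not tell precursor RNA from RNA made by the oligodendrocytes themselves. The part of these lists in these results was not tested. With the counts used here, fewer RNA molecules of a gene per cell and a larger share of other RNA cannot be told apart.

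**Figure D4:**
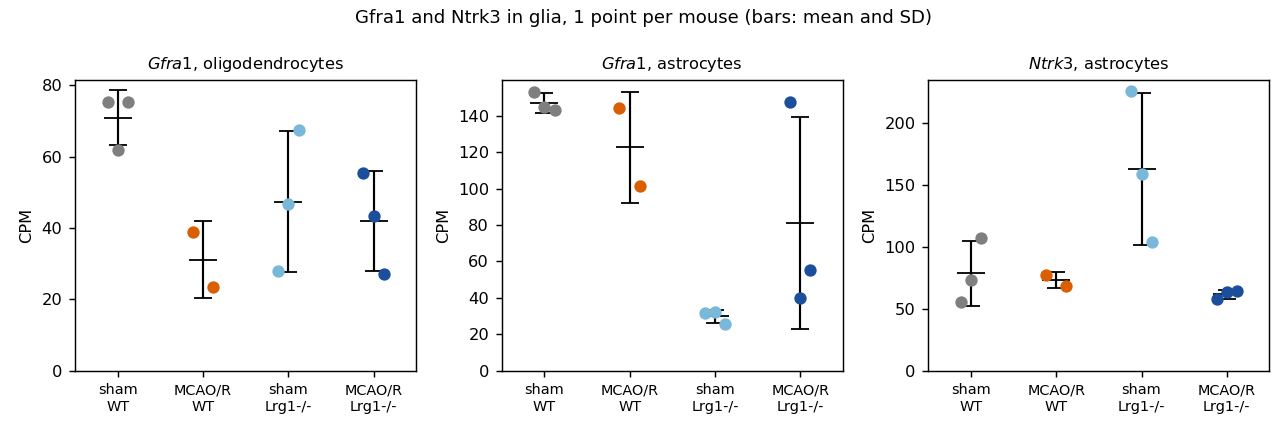
Gfra1 in oligodendrocytes and astrocytes and Ntrk3 in astrocytes (CPM, linear axes from 0), with 1 point per mouse and bars for the group mean and SD. Gfra1 in oligodendrocytes is lower in the 2 MCAO/R + WT mice (23.5 and 38.9) than in the 3 sham + WT mice, and Gfra1 in astrocytes is 25.5 to 32.4 in the sham + Lrg1-/- mice against 143 to 153 in the sham + WT mice.

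The other calls of surgery in the Lrg1-/- mice were of Ntrk3. In astrocytes it went from 226, 158 and 104 CPM to 57.7, 63.1 and 64.5, without overlap (log2 fold change −1.51 ± 0.30, edgeR adjusted p = 0.048), where 0.594% of all genes tested in astrocytes were called. This call was kept in 11 of 22 alternatives and was ended by 7 of the 11 fits that left out 1 library. They were those without MCAO/R + Lrg1-/- replicate 1 (0.10), 2 (0.17) or 5 (0.14), sham + Lrg1-/- replicate 1 (0.17) or 2 (0.12) and sham + WT replicate 2 (0.070) or 3 (0.062). A mitochondrial limit of 10% (0.070) and leaving out haemoglobin, Ttr and mitochondrial genes (0.051) also ended it. In ciliated ependymal cells Ntrk3 went from 11.1, 17.2 and 12.5 CPM (9, 8 and 5 UMIs) to 1.90, 3.12 and 3.47 (1, 17 and 18 UMIs), a log2 fold change of −2.06 ± 0.47 (edgeR, adjusted p = 0.025). In endothelial cells it went from 2.08, 2.36 and 1.77 to 0.613, 0.912 and 1.16 CPM (−1.21 ± 0.39, 0.037), levels near the 1.17 CPM of microglial cells. The call in ciliated ependymal cells was lost without MCAO/R + Lrg1-/- replicate 2 (0.084) or 5 (0.066) or sham + Lrg1-/- replicate 1 (0.058) or 2 (0.093). The call in endothelial cells was lost without MCAO/R + Lrg1-/- replicate 1 (0.063) or 2 (0.12) or sham + Lrg1-/- replicate 1 (0.087), 2 (0.14) or 5 (0.052), with DESeq2 (0.054) and with no filter on low counts (0.051).

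Smooth muscle markers were lower after MCAO/R in these 3 cell types as Ntrk3 was, with overlap in astrocytes. Their sum was 956 to 1436 CPM in the astrocytes of sham + Lrg1-/- mice against 431 to 1110.0 in MCAO/R + Lrg1-/- mice, 793 to 1190.5 against 280 to 792 in ciliated ependymal cells, and 206 to 221 against 117 to 178 in endothelial cells. At least 6 of the 7 markers were present in each library, and VSMCs are a receiver type of Ntrk3. Astrocytes are another, and their markers in endothelial cells rose without overlap, from 95.6 to 110 up to 113 to 146 CPM. Those of fibroblast-like cells, also a receiver type, overlapped in endothelial cells (12.4 to 15.9 and 7.68 to 15.5 CPM). In ciliated ependymal cells 2 more lists were lower after MCAO/R, with overlap and all 7 markers present in both. Choroid plexus epithelial markers summed to 8850 to 33525 CPM in sham + Lrg1-/- and 4701 to 12218 in MCAO/R + Lrg1-/- mice, and the cells' own markers to 6022 to 8935 and 4210 to 6420. In astrocytes the microglial markers summed to 1204 to 2030 and 612 to 1493 CPM, again with overlap. The part of these lists in the results was not tested.

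The comparison of sham + Lrg1-/- with sham + WT mice asks what differed before injury. It called 6 of 37 pairs, 4 higher and 2 lower, beside 10% of all pairs tested, 4.84% higher and 5.15% lower. Of all genes tested, 16.4% were called in VSMCs, 5.4% in astrocytes, 7.29% in pericytes and 2.31% in transitional mural cells. Ntrk3 in VSMCs was 243, 299 and 269 CPM in sham + WT and 202, 157 and 137 in sham + Lrg1-/- mice, without overlap, and was lower by −0.68 ± 0.16 on the log2 scale (SE; edgeR, adjusted p = 0.0069). This call held when any 1 library was left out (highest adjusted p 0.043). Choroid plexus epithelial markers, which VSMCs do not make, summed to 312 to 508 CPM in the VSMCs of sham + WT and 11751 to 16937 in those of sham + Lrg1-/- mice, 92.7 to 214 in MCAO/R + WT and 3205 to 8850 in MCAO/R + Lrg1-/- mice. Pericyte markers in the VSMCs summed to 644 to 742 CPM in sham + WT and 1158 to 1795 in sham + Lrg1-/- mice, without overlap. The part of these lists in the result was not tested.

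Gfra1 in astrocytes was 153, 145 and 143 CPM in sham + WT mice and 31.5, 32.4 and 25.5 in sham + Lrg1-/- mice, a log2 fold change of −2.19 ± 0.41 (edgeR, adjusted p = 0.012). After MCAO/R it was 144 and 101 in WT and 148, 40.1 and 55.1 in Lrg1-/- mice, which overlapped. Ntrk3 in the same cells was 55.6, 73.0 and 107 against 226, 158 and 104 CPM, with a log2 fold change of 1.17 ± 0.28 (adjusted p = 0.032). The call of Gfra1 was lost without sham + Lrg1-/- replicate 5 (0.052), and that of Ntrk3 without sham + WT replicate 1 (0.085), sham + WT replicate 2 (0.13), sham + Lrg1-/- replicate 1 (0.12) or sham + Lrg1-/- replicate 2 (0.062).

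The astrocytes of the 2 genotypes also differed in their own markers. Their sum was 13834 to 15891 CPM in sham + WT and 14965 to 17611 in MCAO/R + WT mice, against 3603 to 7410 in sham + Lrg1-/- and 5160.0 to 7122 in MCAO/R + Lrg1-/- mice, with all 7 present in each library. Smooth muscle markers summed to 95.8 to 235 CPM in the astrocytes of sham + WT and 956 to 1436 in those of sham + Lrg1-/- mice. Oligodendrocyte precursor markers summed to 1041 to 1213 CPM against 359 to 515, with at least 5 of 7 present. They were lower in the Lrg1-/- mice as Gfra1 was. That list includes Olig1, Olig2 and Cspg5, and its sum does not tell precursor RNA from RNA made by the astrocytes themselves. The part of these lists in the differences of Gfra1 and Ntrk3 was not tested. These libraries held 67 to 101 astrocytes in the sham + Lrg1-/- mice and 336 to 762 in the sham + WT mice.

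Ntrk2 was higher in 3 other cell types of the sham + Lrg1-/- mice. In microglial cells it was 18.1, 13.4 and 12.4 CPM against 4.995, 5.72 and 4.97 (log2 fold change 1.32 ± 0.30, edgeR adjusted p = 0.0053, past the threshold under all 22 alternatives), where 28.4% of all genes tested in microglial cells were called. Choroid plexus epithelial markers in them summed to 3576 to 4477 CPM against 271 to 516, and ciliated ependymal markers to 37.9 to 50.3 against 14.6 to 18.0. Astrocyte markers in microglial cells summed to 194 to 255 against 164 to 173 CPM. These cell types are all receivers of Ntrk2, and their part in the result was not tested. In pericytes Ntrk2 was 59.2, 79.8 and 91.5 against 22.4, 36.8 and 41.4 CPM (1.30 ± 0.34, adjusted p = 0.020), on 11 to 18 UMIs per Lrg1-/- library. Choroid plexus epithelial markers in pericytes were 3415 to 8334 against 404 to 1992 CPM. The cells' own pericyte markers were lower, at 11931 to 18305 against 23680 to 24499, and smooth muscle markers higher, at 2225 to 2326 against 834 to 1195. Astrocyte and ciliated ependymal markers overlapped between the groups. The part of these lists was not tested. In transitional mural cells Ntrk2 was 37.9, 71.3 and 25.6 against 15.8, 18.5 and 12.4 CPM (1.61 ± 0.39, edgeR adjusted p = 0.035). Ciliated ependymal markers in transitional mural cells were 225 to 275 against 206 to 213 CPM, with 4 or more of 7 present. Astrocyte markers overlapped there, at 60.4 to 73.2 against 28.6 to 167. The cells' own smooth muscle markers were lower, at 16851 to 19578 against 20981 to 23348, and their pericyte markers overlapped. Choroid plexus epithelial markers were not summed in transitional mural cells in any comparison. The part of the summed lists was not tested. The call in pericytes was lost without sham + Lrg1-/- replicate 2 (0.087) or 5 (0.097) or sham + WT replicate 1 (0.066). The call in transitional mural cells was lost without sham + Lrg1-/- replicate 1 (0.069) or 2 (0.24) or sham + WT replicate 1 (0.083), 2 (0.064) or 3 (0.16).

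The comparison of MCAO/R + Lrg1-/- with MCAO/R + WT mice asks whether loss of Lrg1 changed the injured brain. It called 4 of 38 pairs, 2 higher and 2 lower, beside 16% of all pairs tested, 8.29% higher and 7.7% lower. Of all genes tested, 15.6% were called in VSMCs, 11.1% in transitional mural cells and 15% in pericytes. Ntf3 was lower in both mural types and Ntrk2 was higher in VSMCs and pericytes. In VSMCs, Ntf3 was 19.3 and 45.2 CPM in MCAO/R + WT and 20.6, 11.0 and 14.7 in MCAO/R + Lrg1-/- mice, so that the groups overlapped, with a change of −1.27 ± 0.31 (log2 ± SE; edgeR, adjusted p = 0.012). It was lost without MCAO/R + WT replicate 2 (0.36), where the change was −0.55, without MCAO/R + Lrg1-/- replicate 2 (0.091), with the groups of the contrast alone (0.086) and with cells thinned to 1000 UMIs, where the change was −0.36 (0.85). In transitional mural cells, 20.3 and 34.4 against 7.59 and 9.32 CPM did not overlap (−1.72 ± 0.46, adjusted p = 0.023), and the call was lost without the same mice (0.21 and 0.30). Smooth muscle markers in these cells summed to 15318 to 18762 CPM in MCAO/R + WT and 11965 to 14872 in MCAO/R + Lrg1-/- mice, and pericyte markers to 5173 to 5716 against 4075 to 4282, all 7 of each present. Both were lower in the Lrg1-/- mice as Ntf3 was, and their part in the result was not tested.

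Ntrk2 in VSMCs after MCAO/R was 2.21 and 7.72 CPM in WT and 14.4, 17.8 and 12.6 in Lrg1-/- mice, without overlap (log2 fold change 1.61 ± 0.43, edgeR adjusted p = 0.018), and this was lost without MCAO/R + WT replicate 1 (0.20) or MCAO/R + Lrg1-/- replicate 2 (0.098), and with the groups of the contrast alone (0.073). Choroid plexus epithelial markers in these VSMCs, at 92.7 to 214 against 3205 to 8850 CPM, were higher in the Lrg1-/- mice as Ntrk2 was, and their part in the result was not tested. In pericytes it was 10.7 and 18.5 against 66.9, 36.8 and 41.0 CPM (1.61 ± 0.36, adjusted p = 0.0043), and that call held when any 1 library was left out (highest 0.035). Astrocyte markers in pericytes summed to 114 to 174 CPM in MCAO/R + WT and 46.9 to 301 in MCAO/R + Lrg1-/- mice, which overlapped, and choroid plexus epithelial markers to 111 to 278 against 5339 to 8371. The part of these in the result was not tested. The 27, 183 and 51 pericytes of the MCAO/R + Lrg1-/- mice gave 10, 35 and 7 Ntrk2 UMIs.

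In the cells with the most Ntrk2, no contrast was called. Astrocytes had 1221.6 and 1740.4 CPM in MCAO/R + WT and 836, 759 and 847 in MCAO/R + Lrg1-/- mice, without overlap, and the log2 fold change of −0.85 ± 0.32 had an adjusted p of 0.15 (edgeR). Ciliated ependymal cells had 565 to 1044.5 CPM over all 11 mice, with log2 fold changes of −0.19 to −0.13 in the 4 contrasts between groups. Ntrk3 in VSMCs after MCAO/R was 241 and 268 against 144, 181 and 218 CPM (−0.47 ± 0.17, adjusted p = 0.076).

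The interaction of genotype and surgery called none of 32 pairs with edgeR, beside 2.44% of all pairs tested, 1.29% higher and 1.15% lower, and 0.58% in VSMCs. At an unadjusted p below 0.05 there were 7 pairs, and DESeq2 also called 0. With no filter on low counts edgeR called 4 pairs, and the result does not show that surgery acted alike in both genotypes. For Ntf3 in VSMCs the interaction was −0.72 ± 0.38 (adjusted p = 0.51) and for Ntrk2 in VSMCs 1.53 ± 0.51 (0.23).

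Other settings ended further calls. Thinning cells to 1000 UMIs ended those of Ntrk2 in pericytes between genotypes after MCAO/R (edgeR adjusted p = 0.16) and of Ntf3 in VSMCs (0.10), Ntrk2 in pericytes (0.77) and Ntrk2 in oligodendrocytes (0.44) for surgery in WT mice. It also ended those of Ntrk3 in astrocytes for surgery in Lrg1-/- mice (0.17) and of Gfra1 in astrocytes (0.15), Ntrk3 in astrocytes (0.13), Ntrk3 in VSMCs (0.16) and Ntrk2 in pericytes (0.74) between the sham groups. A neighbour graph not balanced over mice ended the calls of Ntf3 in transitional mural cells (0.16) and Ntrk2 in VSMCs (0.0501) between genotypes after MCAO/R, of Ntf3 in VSMCs for surgery in WT mice (0.14), of Ntrk2 in transitional mural cells (0.14), Ntrk3 in ciliated ependymal cells (0.079) and Ntrk3 in endothelial cells (0.051) for surgery in Lrg1-/- mice, and of Ntrk3 in VSMCs (0.092) and Ntrk2 in transitional mural cells (0.073) between the sham groups.

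**Figure D5:**
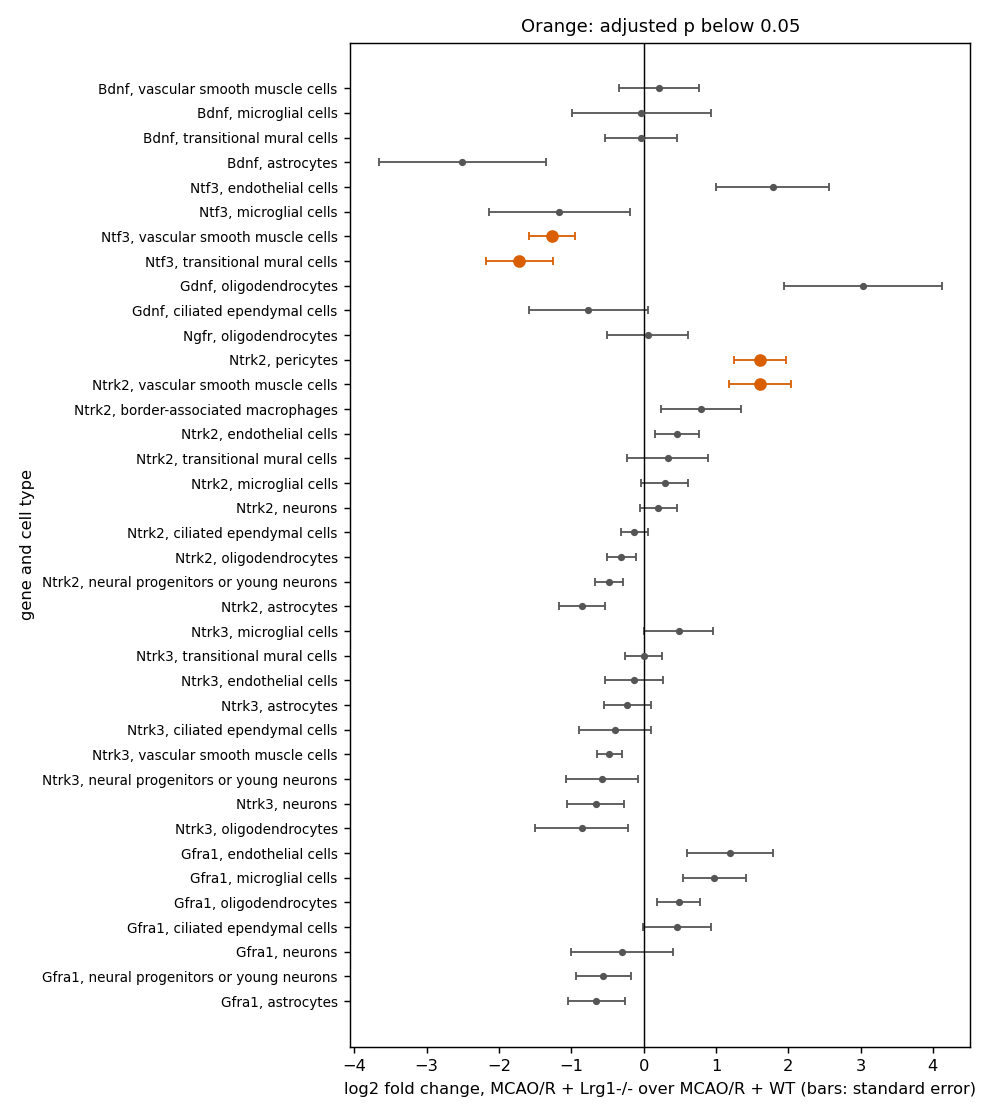
Log2 fold change of MCAO/R + Lrg1-/- against MCAO/R + WT mice for the 38 tested pairs of a gene and a cell type, as points with bars of 1 SE, where values above 0 are higher in Lrg1-/- mice. The 4 called pairs (orange) are Ntf3 in both mural types at −1.27 and −1.72 and Ntrk2 in vascular smooth muscle cells and pericytes, both at 1.61.

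The other genes of the pathway were taken from 5 fixed lists. Of the 11 other neurotrophic ligands, 9 were tested in some type, and 19 of 56 pairs were called between genotypes after MCAO/R, 11 higher and 8 lower in Lrg1-/- mice, beside 16% of all pairs tested (8.29% higher, 7.7% lower). Manf, a secreted protein of the endoplasmic reticulum with trophic activity, was higher in 8 of the tested cell types. In VSMCs it was 91.7 and 96.5 CPM in MCAO/R + WT and 105, 185 and 189 in MCAO/R + Lrg1-/- mice (log2 fold change 0.81 ± 0.18, edgeR adjusted p = 0.0071), and in microglial cells 247 and 168 against 432, 546 and 452 (1.05 ± 0.17, 0.00059). In microglial cells the choroid plexus epithelial markers summed to 104 to 236 CPM in MCAO/R + WT and 2193 to 3754 in MCAO/R + Lrg1-/- mice, with all 7 present, and they differed between the genotypes in VSMCs as well. Their part in the higher Manf was not tested.

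Nrtn, a relative of GDNF, rose with surgery in oligodendrocytes. It was 6.33, 6.47 and 3.996 CPM in sham + WT and 50.8 and 89.3 in MCAO/R + WT mice (log2 fold change 3.55 ± 0.30, edgeR adjusted p = 1.4e-06), and 2.37, 1.87 and 8.94 in sham + Lrg1-/- against 8.55, 13.1 and 15.8 in MCAO/R + Lrg1-/- mice (1.93 ± 0.49, 0.016). In the WT mice the groups were far apart, and in the Lrg1-/- mice they overlapped slightly. Ntf5, the other ligand of TrkB, was highest in choroid plexus epithelial cells at 11.3 CPM (SD 3.76, n = 10), a type that also received Ntrk2. Ptn, a heparin-binding growth factor, fell with surgery in endothelial cells, from 1129.9, 1256 and 1240.2 CPM to 77.3 and 150 in WT mice (−3.39 ± 0.37, 3.5e-05) and from 1055, 871 and 662 to 503, 210 and 230 in Lrg1-/- mice (−1.50 ± 0.29, 0.0030), without overlap in either genotype.

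Of 17 other receptors and coreceptors, 15 were tested, and after MCAO/R 14 of 116 pairs were called between genotypes, 2 higher and 12 lower in Lrg1-/- mice, beside the same 16%. Sort1, which binds uncleaved neurotrophins together with p75NTR, was among the lower ones in microglial cells, at 113 and 132 against 54.7, 48.4 and 57.9 CPM (log2 fold change −1.34 ± 0.13, edgeR adjusted p = 1.1e-05). Gfra2, the coreceptor preferred by neurturin, the product of Nrtn, fell with surgery in all 3 mural types of both genotypes. In VSMCs it went from 23.0, 29.4 and 30.6 CPM to 8.29 and 6.62 in WT mice (−1.87 ± 0.26, 0.00019) and from 35.4, 45.2 and 33.0 to 10.3, 11.7 and 11.0 in Lrg1-/- mice (−1.75 ± 0.22, 9.98e-05), again without overlap. In pericytes it went from 126, 136 and 140 to 49.7 and 39.4 CPM in WT mice (−1.58 ± 0.24, 0.00025) and from 178, 222 and 63.4 to 107, 51.5 and 64.4 in Lrg1-/- mice (−1.34 ± 0.32, 0.031). In the pericytes of Lrg1-/- mice the groups overlapped, since sham replicate 5 (63.4) lay below 2 of the 3 MCAO/R mice. Pericyte markers in pericytes summed to 23680 to 24499 CPM in sham + WT, 15085 to 19720.4 in MCAO/R + WT, 11931 to 18305 in sham + Lrg1-/- and 10651.5 to 15414 in MCAO/R + Lrg1-/- mice. They were lower after MCAO/R in WT mice, as Gfra2 was, and their part in the result was not tested.

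Of the genes that process proneurotrophins, 23 of 94 pairs were called between genotypes after MCAO/R (13 higher, 10 lower), of the receptor adaptors and effectors 44 of 321 (16 higher, 28 lower) and of the ERK feedback and activity-regulated genes 26 of 151 (3 higher, 23 lower). The share called over all genes and cell types was 16%. Spred2, an inhibitor of Ras-ERK signaling, was lower in pericytes (log2 fold change −1.11 ± 0.24, edgeR adjusted p = 0.0036) and VSMCs (−0.88 ± 0.20, 0.0069), and Gab1, an adaptor of receptor kinases, in pericytes (−1.56 ± 0.24, 0.00021) and VSMCs (−0.69 ± 0.16, 0.0088). With surgery in WT mice, 25 of 144 pairs of ERK feedback and activity-regulated genes were called, 17 higher and 8 lower, beside 10.7% of all pairs tested. In the Lrg1-/- mice 19 of 142 were called, 11 higher and 8 lower, beside 11.1%. Between the sham groups it was 14 of 138, 2 higher and 12 lower in Lrg1-/- mice, beside 10%. The ligand pairs called were 9 of 54, 15 of 57 and 6 of 55 in these 3 contrasts, and the receptor pairs 16 of 111, 18 of 109 and 10 of 105, to be read against the same 10.7%, 11.1% and 10%.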

How the data were processed

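Raw UMI count matrices (10x Genomics 3′ libraries), deposited by the authors with 1 matrix per mouse, were used as counts, without normalization. Cell Ranger made them with STAR and mm10, per the submitters' processing notes, and the matrix headers name version 7.0.1. Of the Lrg1-/- matrices, 4 held a round number of barcodes (15500, 9000, 5650 and 8500). Total UMIs per library ranged from 37159497 to 171813031, and floors of 3 counts cover counting error only.

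Cells with more than 500 genes, more than 1000 UMIs and under 25% mitochondrial UMIs were kept, and the 6% of each library with the highest doublet scores were removed. Cells were clustered on 2000 variable genes, 15 components and a graph with 3 neighbours per mouse (leidenalg 0.10.2, resolution 1.5, 0.3 for divided clusters). Clusters were named where at least 3 fixed markers were 2-fold above the median over clusters and in 10% of cells. A second marker list close behind left a cluster unnamed, apart from the 2 combined types. So did many doublets, few cells, low UMIs without a leading marker, or a score far below the best cluster of the type. The rules for ties between marker lists were set after the clusters were seen. The UMIs of each cell type were added up within a mouse (at least 20 cells) and tested in edgeR 4.0.16 (R 4.3.3; TMM, filterByExpr, quasi-likelihood, all groups in 1 fit), with DESeq2 1.42.0 as an alternative. The test was checked on simulated counts. Groups came from the sample labels. The members and the gene lists were chosen with earlier results of these data known. Genes of the lists were named by the smallest adjusted p, at most 3 per list, contrast and cell type, and the genes most alike by the highest correlation among those reaching 20 CPM in a type. Results of some genes are not reported here. Python 3.11.15 with numpy 2.4.6, scipy 1.17.1, pandas 2.3.3 and matplotlib 3.10.9 was used for the rest.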

Additional observations from a re-analysis of the deposited data

Results flagged for a closer look

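The pairs of a pathway gene and a cell type below were called for the interaction of genotype and surgery in edgeR. The Benjamini‒Hochberg adjustment ran over all genes of a cell type. Their adjusted p ranged from 0.0035 (Sort1 in microglial cells) to 0.047 (Traf6 in microglial cells). Over all genes and cell types tested, 2.44% of pairs were called, and MCAO/R + WT had 2 mice. Marker lists of other cell types differed between genotypes, as given above, and their part in these results was not tested. Values are log2 differences, and a positive one means that the log2 fold change with MCAO/R was higher in Lrg1-/- than in WT mice. In endothelial cells they were −0.69 for Sdc3, 1.89 for Ptn and −3.22 for Nrtn. Mean Nrtn went from 0.429 to 7.12 CPM with surgery in WT mice and from 1.31 to 2.62 in Lrg1-/- mice.

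In microglial cells the differences were −0.85 for Traf6, −1.06 for Sort1, −0.73 for Furin, −1.55 for Sorl1 and 1.05 for Manf. Mean Sorl1, a sorting receptor, went from 17.4 to 86.9 CPM in WT and from 20.8 to 33.9 in Lrg1-/- mice. In oligodendrocytes they were −1.27 for Pcsk2, −0.83 for Ptpn11, −2.15 for Sh2b2, 1.29 for Arc, −1.19 for Egr1 and −1.004 for Irak1. Mean Sh2b2, an adaptor of receptor kinases, went from 3.94 to 128 CPM in WT and from 6.06 to 45.6 in Lrg1-/- mice.

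Among the members, Gfra1 in choroid plexus epithelial cells was picked out by its values as listed, which were lower after MCAO/R in WT mice and higher in Lrg1-/- mice, although the WT side rests on 1 library at 0. The level was 5.33, 1.48 and 2.91 CPM in sham + WT mice and 0 in the 1 MCAO/R + WT library with enough cells, and 0.437, 1.39 and 0.603 in sham + Lrg1-/- against 2.50, 1.70 and 2.22 in MCAO/R + Lrg1-/- mice. The mean was 1.33 CPM higher after MCAO/R in Lrg1-/- mice, on 2 to 28 UMIs per library, and the difference between genotypes was not tested. The 0 of the MCAO/R + WT library allows up to 7.64 CPM (3 counts), above all 3 sham + WT values, so no direction can be read in WT mice.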

How the results depend on the processing

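The called log2 fold changes of members were compared with an alternative 448 times. None reversed, 364 stayed past the threshold and 84 kept their direction without passing. Calls of members after MCAO/R between genotypes (4) became 9 with no filter on low counts, 0 with cells thinned to 1000 UMIs, 2 with only the groups of the contrast, 2 with a plain neighbour graph and 2 to 6 when 1 library was left out. For surgery in WT mice (6) they became 1 when thinned and 3 to 7 without 1 library. For surgery in Lrg1-/- mice (5) they became 9 with no filter, 0 when thinned, 3 with at least 50 cells, 2 with a plain graph and 1 to 6 without 1 library. Between the sham groups (6) they became 1 when thinned, 11 with only the groups of the contrast and 3 to 8 without 1 library. The interaction (0) gave 4 with no filter and 0 to 1 without 1 library. The calls over the pathway lists (399) became 610 with no filter, 166 when thinned, an alternative chosen after seeing the data, and 309 to 442 without 1 library. Fits that leave a group with 1 library assume that it varies like the others. Thinning also leaves fewer UMIs to test, and all 23 thinned shares of cells moved by more than 1 SD. For other alternatives, the cause was not tested.

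Whether replicate numbers shared between groups paired the mice could not be decided. With so few mice per group the deviations depend on each other, and those of the MCAO/R + WT mice were mirror images. In 13 same-numbered pairs the correlation of deviations was −0.298 to 0.215 in astrocytes and −0.287 to 0.0616 in endothelial cells. It was −0.200 to 0.130 in microglial cells and −0.233 to 0.0385 in oligodendrocytes. With a replicate block, calls became 3 between genotypes after MCAO/R, where Ntrk2 in VSMCs was lost (edgeR adjusted p = 0.056), 4 for surgery in WT mice, where Ntf3 in VSMCs (0.089) and Ntrk2 in pericytes (0.18) were lost, 3 for surgery in Lrg1-/- mice, where Ntrk3 in astrocytes (0.061) and in ciliated ependymal cells (0.060) was lost, 3 between the sham groups, where Ntrk2 in pericytes (0.058) and transitional mural cells (0.10) and Ntrk3 in VSMCs (0.067) were lost, 0 for the interaction and 247 over the pathway lists. Low counts limit Bdnf, Gdnf and Ngfr most, with 1629, 315 and 460 UMIs in all cells.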
